A study of Mus musculus with 10 samples.

Results

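The DEAD box and DEAH box genes are a large family of RNA helicases, named for the 4 residues of a conserved motif that binds and hydrolyses ATP. The 48 genes described here are the protein-coding genes whose mouse symbol starts with Ddx (33 genes) or Dhx (15 genes) followed by a digit, without 5 genes with such symbols that the rule set aside. They are 48 of the 21976 protein-coding genes, and of 55421 genes in all, in the count files. The rule itself uses the symbol alone and no measured value.

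DEAD box proteins use ATP to pull apart short stretches of paired RNA or to clamp onto single-stranded RNA, and DEAH box proteins move along RNA and strip off what is bound to it. Together they take part in nearly every step in the life of an RNA, from transcription and splicing through ribosome assembly and nuclear export to translation and decay. In the testis, where transcription and translation of many mRNAs are separated in time, several of them are known for roles in germ cells. MOV10, the protein that was removed or immunoprecipitated in this study, is an RNA helicase of another superfamily, the UPF1-like helicases, and is not among the 48 genes.

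The data are 10 libraries from mouse testes at postnatal day 21 (P21). RNA-seq of poly(A) RNA was made from 6 pairs of testes, 3 from wild type mice (replicates 1, 2 and 3) and 3 from *Mov10*-/- mice (replicates 2, 3 and 4). The *Mov10*-/- mice are global knockouts in which *Actb*-Cre, active in all tissues, had removed exons that encode a helicase domain, on a mixed genetic background. MOV10 CLIP-seq, in which RNA crosslinked to the protein is pulled down with it and sequenced, was made from wild type testes (replicates 1, 2, 3 and 5). The study cut RNA from a main band and from a position above it, without a label that ties a library to either.

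RNA-seq libraries had 5083407 to 9230540 reads counted on genes, with *Mov10*-/- replicate 3 the lowest and 57.2% of its reads not aligned, against 26.5% to 35.9% in the other RNA-seq libraries. CLIP-seq libraries had only 3404 to 4934 reads on genes, although their files count 9468912 to 15182658 reads in all, since 99.5% to 99.6% of these did not align. As a check of the labels, *Mov10* itself stood at 114, 96.8 and 119.8 CPM (counts scaled like RPM, with the TMM factor of each library) in wild type testes and at 29.2, 26.7 and 26.8 CPM in *Mov10*-/- testes, a log2 fold change of -1.999 (adjusted p = 0.0055, edgeR quasi-likelihood test). The counts are per gene, so where on *Mov10* the remaining reads lie was not tested. Of the 7 lists of cell type markers used as a check, none had a gene without a read in all RNA-seq libraries.

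The motif that names the family is shown first, since the members differ in it. It was searched in the translated coding sequence of each gene as DEAD or DEAH, also with another residue at the last but one place, at the spacing it usually has from the neighbouring helicase motifs. In the Ddx genes, 23 of 33 had DEAD, 5 had a variant and 5 had no match at the searched spacing (*Ddx1*, *Ddx11*, *Ddx24*, *Ddx28* and *Ddx51*). In the Dhx genes, 8 of 15 had DEAH, 6 had a variant and 1, *Dhx32*, had no match. The search also required set letters in the neighbouring motif on either side. A missing match says only that the box and both neighbours were not found together at this spacing. The coding sequences are those of GENCODE M21 on GRCm38 (mm10), and each line below gives 30 bases of coding strand, 5′ to 3′, with the 12 bases of the box in capitals. Shown are germ cell and sex chromosome members and the paralog pairs, with *Dhx15* as an example of DEAH and *Dhx36* of a variant box, where the 30 bases lie in a single exon. Those of *Ddx43* and *Ddx6* span an intron and are not shown.

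Ddx25 (chr9:35551326-35551355, minus strand): tttgtcctgGATGAAGCAGATgtgatgatt
Ddx3x (chrX:13289399-13289428, plus strand): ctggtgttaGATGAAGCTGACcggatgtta
Ddx3y (chrY:1265940-1265969, minus strand): ttagtattgGATGAAGCTGATaggatgctg
Ddx17 (chr15:79538866-79538895, minus strand): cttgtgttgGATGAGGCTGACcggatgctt
Ddx5 (chr11:106785184-106785213, minus strand): cttgtccttGATGAAGCTGATaggatgctt
Ddx19a (chr8:110979077-110979106, minus strand): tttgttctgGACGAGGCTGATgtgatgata
Ddx19b (chr8:111011326-111011355, minus strand): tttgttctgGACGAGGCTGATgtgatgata
Ddx21, a variant box (chr10:62591872-62591901, minus strand): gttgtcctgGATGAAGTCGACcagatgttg
Ddx50, a variant box (chr10:62640502-62640531, minus strand): gttgtgcttGATGAAGTAGATcaaatgtta
Dhx15, DEAH (chr5:52171487-52171516, minus strand): ataattcttGATGAGGCCCATgaaagaaca
Dhx36, a variant box (chr3:62493845-62493874, minus strand): attgtacttGATGAAATTCATgaaaggaat

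*Ddx19a* and *Ddx19b* lie side by side on chromosome 8 and had the same 30 bases at the box. Over the whole of the longest transcript, 33.3% of the 50-base stretches of *Ddx19a* were found in *Ddx19b*, and 12.7% of those of *Ddx19b* in *Ddx19a*, so that reads of the pair may have been lost or exchanged. The same measure was 62.7% in *Ddx18*, mostly shared with *Gm16433*, and 23.9% in *Ddx5*, mostly shared with *Gm12183*. It was 4.49% in *Ddx6*, 3.25% in *Ddx3x* and 0.0439% in *Ddx3y*. The counts of *Ddx18*, *Ddx19a*, *Ddx19b* and *Ddx5* are uncertain to that extent.

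All 48 genes were detected in P21 testes. Every one passed the filter of more than 1 RPM (reads on a gene per 1e6 reads on genes) in at least 3 of 6 RNA-seq libraries, and their wild type levels ran from 2.16 to 47.2 RPKM, which is RPM divided by the length of the merged exons in kilobases. The median was 22.7 RPKM, beside 10.2 RPKM over the 15731 protein-coding genes that passed the filter, and 45 of the 48 genes lay above that value.

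*Ddx17* and *Ddx5*, paralogs that act as partners of transcription factors and in microRNA processing, had the highest levels. *Ddx17* stood at 47.0, 46.3 and 48.5 RPKM in wild type replicates 1, 2 and 3 (47.2 ± 1.13, SD, n = 3). *Ddx5* stood at 45.2, 46.5 and 44.4 RPKM (45.4 ± 1.06). The ranges of the pair overlapped, so their order is not set. *Ddx19b*, which releases mRNA from the nuclear pore on its cytoplasmic side, followed with 37.97, 39.1 and 39.6 RPKM, below every value of *Ddx5*. The less known *Dhx40* (36.5 ± 2.70 RPKM) and the spliceosomal *Ddx42* (33.7 ± 2.75 RPKM) came next. *Dhx40* overlapped both *Ddx19b* and *Ddx42*, and *Ddx42* overlapped the next genes, *Ddx10* and *Ddx41*, so that the order is not set there.

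The lowest level was that of *Ddx60*, an interferon-induced gene of the antiviral response, at 2.18, 1.88 and 2.43 RPKM. *Ddx55* stood at 9.11, 6.45 and 10.7 RPKM and *Ddx19a* at 10.9, 8.19 and 11.1 RPKM, both above *Ddx60* in every library and overlapping each other. The divisor matters for the top of the order: with the length of the longest transcript, *Ddx17* (76.3 RPKM) and *Ddx5* (73.0 RPKM) still led, but *Dhx15* (54.5 RPKM), *Dhx30* (53.4 RPKM) and *Dhx9* (47.1 RPKM) followed. The 3 lowest genes stayed the 3 lowest.

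**Figure D1:**
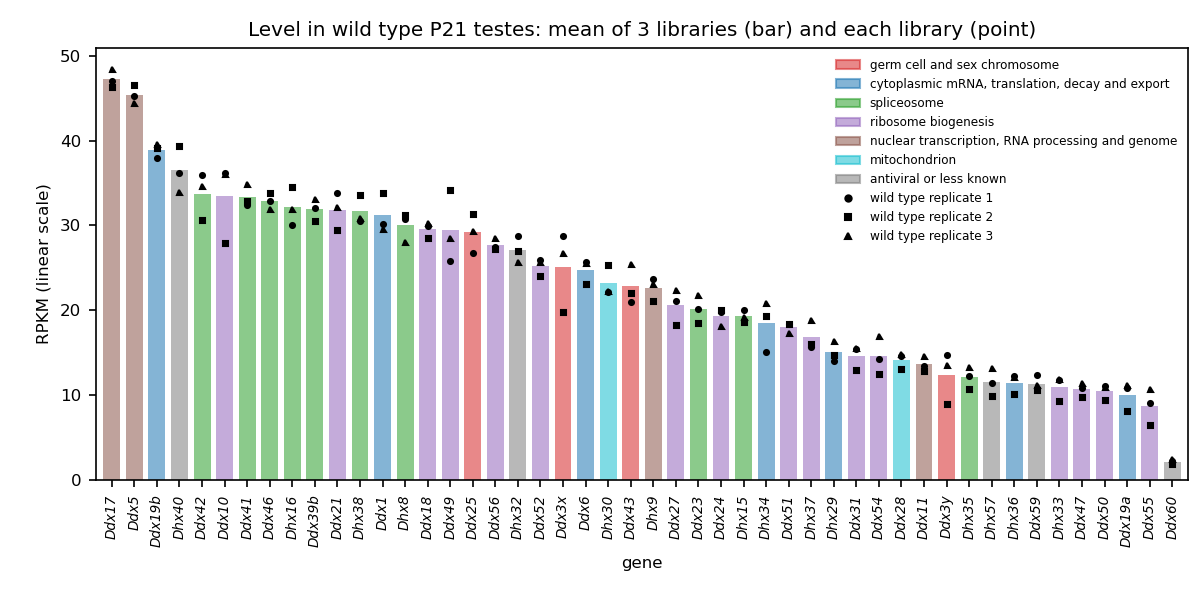
Level of each of the 48 genes in wild type P21 testes, in RPKM on a linear axis. Bars are the mean of 3 libraries, points are the libraries and colours are roles; *Ddx17* and *Ddx5* stand highest and *Ddx60* lowest, with a median of 22.7 RPKM.

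Levels differed little between testes of one genotype. The coefficient of variation of CPM over the 3 libraries had a median over the 48 genes of 7.51% among wild type and 9.74% among *Mov10*-/- libraries, beside 15.3% and 14.7% over the protein-coding genes that passed the filter, which include many genes of lower level. The most variable genes were *Ddx55* (22.4%) and *Ddx3y* (21.9%) in wild type testes and *Ddx60* (36.3%) in *Mov10*-/- testes. *Ddx18*, which shares sequence with another gene, was the steadiest in wild type testes (0.811%).

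The comparison of genotypes asked whether loss of MOV10 altered the level of these helicase mRNAs. No member was called. A call needed both a change of more than 2-fold and an adjusted p below 0.05, here from the quasi-likelihood test of edgeR. In this fit 0.00494% of the 20240 genes tested were called, which is *Mov10* alone, so the call says little about the family. edgeR's exact test called 5.37% and DESeq2 called 5.13% of the genes tested, and neither called a member. The smallest adjusted p among the 48 genes was 0.189, and across the 14 alternative fits it was 0.0879.

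The intervals say more than the calls. The 95% confidence interval of the fold change lay inside 2-fold in both directions for all 48 genes. The share was 59.6% among all genes tested and 69.5% among the protein-coding ones, which include many genes of lower level. Over the 48 genes the lowest bound was a log2 fold change of -0.58, for *Ddx49*, and the highest was 0.86, for *Ddx60*. For 42 of the 48 genes, or 87.5%, the interval also lay inside 1.5-fold, beside 32.8% of all genes tested and 41.4% of the protein-coding ones. At an unadjusted p under 0.05, no member was lower and 2 were higher in *Mov10*-/- testes, against backgrounds of 11.9% lower and 5.58% higher among all genes tested. Among protein-coding genes the backgrounds were 9.63% lower and 6.38% higher. The share of members that were higher was 4.17%, near the background. In bulk testis RNA, fewer cells of a type and less RNA per cell cannot be told apart.

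The median log2 fold change of the 48 genes was 0.08, beside 0.03 over all genes tested and 0.06 over the protein-coding ones, and 32 genes had a value above 0 and 16 below. The 32 genes are 66.7%, beside 53.8% of all genes tested and 58.5% of the protein-coding ones, and they numbered 28 without *Mov10*-/- replicate 3 and 39 without *Mov10*-/- replicate 2. All 3 values of *Mov10*-/- testes lay above all 3 of wild type testes for 8 members, or 16.7%. The background was 11.9% of all genes tested and 13.5% of the protein-coding ones. The *Mov10*-/- values all lay below for 2 members, *Ddx52* and *Ddx59*, or 4.17%, with a background of 14.1% and 11.7%. The 8 members were *Ddx54*, *Ddx27*, *Ddx39b*, *Ddx19a*, *Dhx9*, *Ddx10*, *Ddx17* and *Ddx6*. With fewer testes to overlap, the higher members numbered 16 without *Mov10*-/- replicate 2 (33.3%, beside 16.5% of all genes tested and 17.8% of protein-coding ones). They numbered 13 without *Mov10*-/- replicate 3 or without wild type replicate 3 (27.1%, beside 19.2% and 18.6%). Among protein-coding genes these shares were 21.8% and 20.5%. The lower ones numbered 7 without *Mov10*-/- replicate 3 (14.6%, beside 21.9%) and 4 without wild type replicate 1 (8.33%, beside 19.4%). Both shares lay below those of all genes and of protein-coding genes (18.9% and 16.1%).

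**Figure D2:**
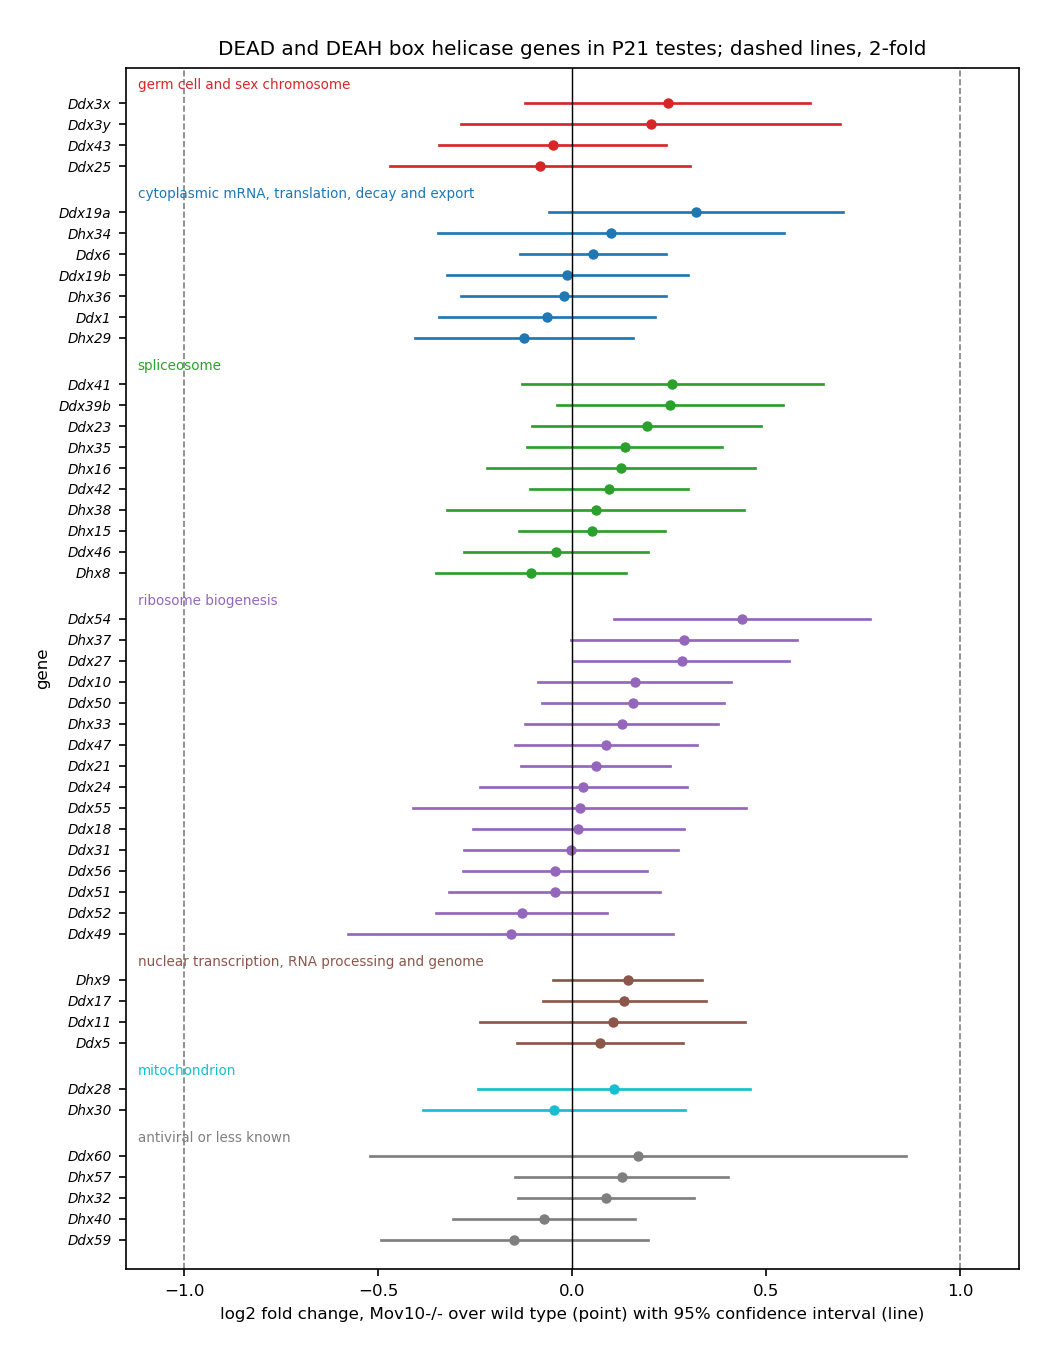
Log2 fold change of each gene, *Mov10*-/- over wild type (points), with its 95% confidence interval from the quasi-likelihood fit (lines), grouped by role. All 48 intervals lie between the dashed lines at 2-fold, and those of *Ddx54* and *Ddx27* alone exclude 0.

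Single libraries carried much of the pattern in the fold changes. In *Mov10*-/- replicate 3, 27 of the 48 genes had their highest CPM of all 6 RNA-seq libraries, and in wild type replicate 2, 19 had their lowest. *Mov10*-/- replicate 2 held the highest value of 9 genes and the lowest of 15. Its median log2 deviation from each gene's mean was -0.03, beside 0.12 in *Mov10*-/- replicate 3. The wild type medians were -0.04, -0.08 and -0.007 in replicates 1, 2 and 3. Such counts were not made over all genes tested. The CPM summed over the 48 genes was 5830.3, 5948 and 5949 in wild type replicates 1, 2 and 3, and 5819, 6682 and 6095 in *Mov10*-/- replicates 2, 3 and 4. The group means of 5909 ± 68.3 and 6198 ± 441 (SD, n = 3) differed by less than the spread between *Mov10*-/- testes. Without *Mov10*-/- replicate 3 no member was higher at an unadjusted p under 0.05, beside 3.44% of all genes tested, and the median log2 fold change was 0.04. Without *Mov10*-/- replicate 2 there were 6 such members, or 12.5%, beside 3.16%, and a median of 0.10. There was 1 such member, or 2.08%, without *Mov10*-/- replicate 4, wild type replicate 1 or wild type replicate 2, beside 3.65%, 5.94% and 3.02%.

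Cell type markers also differed between these libraries. The CPM summed over spermatid markers was 1246, 2289 and 988 in wild type replicates 1, 2 and 3, and 589.9, 1082 and 745 in *Mov10*-/- replicates 2, 3 and 4. Wild type replicate 2 and *Mov10*-/- replicate 2, where most of the helicase genes with a lowest value had it, held the highest and the lowest sum, while *Mov10*-/- replicate 3 lay within the wild type range. Of 24 spermatid markers tested, 20 were lower at an unadjusted p under 0.05 and none was higher, with a median log2 fold change of -2.09 and a smallest adjusted p of 0.150. Sertoli cell markers had 5 of 13 genes higher (median 0.31) and peritubular and endothelial markers 2 of 10 (median 0.30), with none lower. Spermatogonial markers had 1 of 15 higher (median 0.23). No spermatocyte marker (20 tested), Leydig cell marker (8) or macrophage marker (9) differed at that level, and their medians were 0.03, 0.20 and 0.27. The part of these cell types in the values of the helicase genes was not tested.

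**Figure D3:**
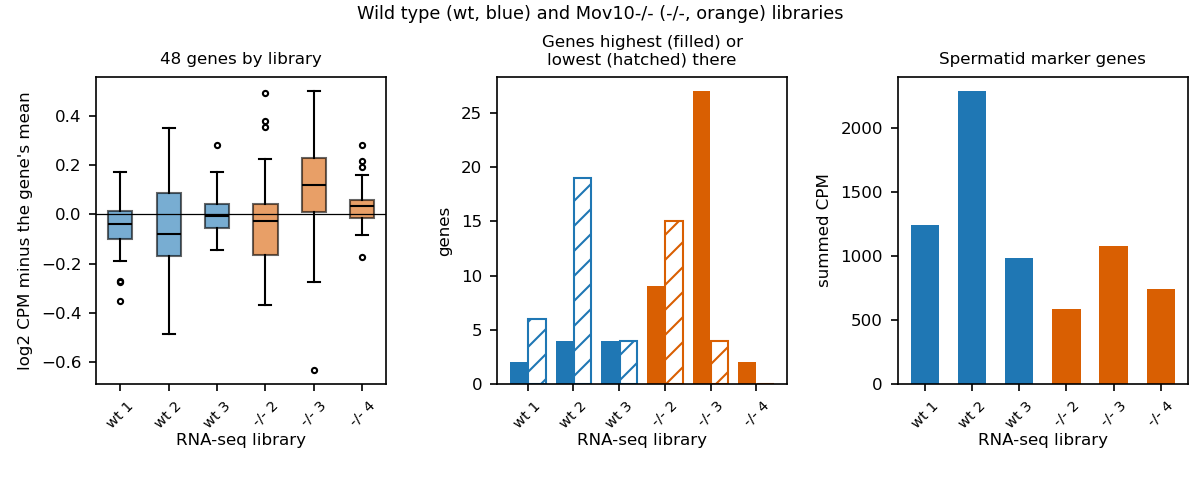
Left, log2 CPM of the 48 genes in each RNA-seq library minus each gene's mean over the libraries (box, quartiles and median; whiskers, 1.5 times the interquartile range; circles, genes beyond). Middle, the number of genes with their highest (filled) or lowest (hatched) value in that library, 27 highest in *Mov10*-/- replicate 3. Right, summed CPM of spermatid markers, highest in wild type replicate 2.

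The germ cell and sex chromosome members were *Ddx25*, *Ddx43*, *Ddx3x* and *Ddx3y*. None passed the test, and the fold changes fell on both sides of 0. *Ddx25*, a gonadotropin-regulated helicase of Leydig and germ cells needed for spermatids to mature, had 183, 227 and 202 CPM in wild type replicates 1, 2 and 3. It had 152, 238 and 189 CPM in *Mov10*-/- replicates 2, 3 and 4, so the knockout testes held both its lowest and its highest value. Its log2 fold change was -0.08 ± 0.17 (SE, adjusted p = 0.820), with a 95% interval of -0.47 to 0.30, and with 1 testis left out it ran from -0.26 (without *Mov10*-/- replicate 3) to 0.06 (without *Mov10*-/- replicate 2). *Ddx43*, a cancer and testis antigen, had 45.8, 50.5 and 55.7 CPM in wild type and 46.9, 48.7 and 51.2 CPM in *Mov10*-/- testes. Its knockout values all lay within the wild type range.

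*Ddx3x*, the X-linked helicase that helps structured mRNAs into translation, had 149.9, 109 and 140.2 CPM in wild type and 186, 138 and 148 CPM in *Mov10*-/- testes. Its Y-linked counterpart *Ddx3y* had 75.4, 48.6 and 69.9 CPM in wild type and 87.1, 56.3 and 79.1 CPM in *Mov10*-/- testes. Both genes were lowest in wild type replicate 2 and highest in *Mov10*-/- replicate 2, and the genotypes overlapped for both. Their log2 fold changes were 0.25 and 0.20, with 95% intervals of -0.12 to 0.61 and -0.29 to 0.69. The level of *Ddx3x* per length was 1.96, 2.20 and 1.98 times that of *Ddx3y* in wild type and 2.11, 2.42 and 1.84 times in *Mov10*-/- testes, so the pair kept a similar ratio while both moved between libraries.

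**Figure D4:**
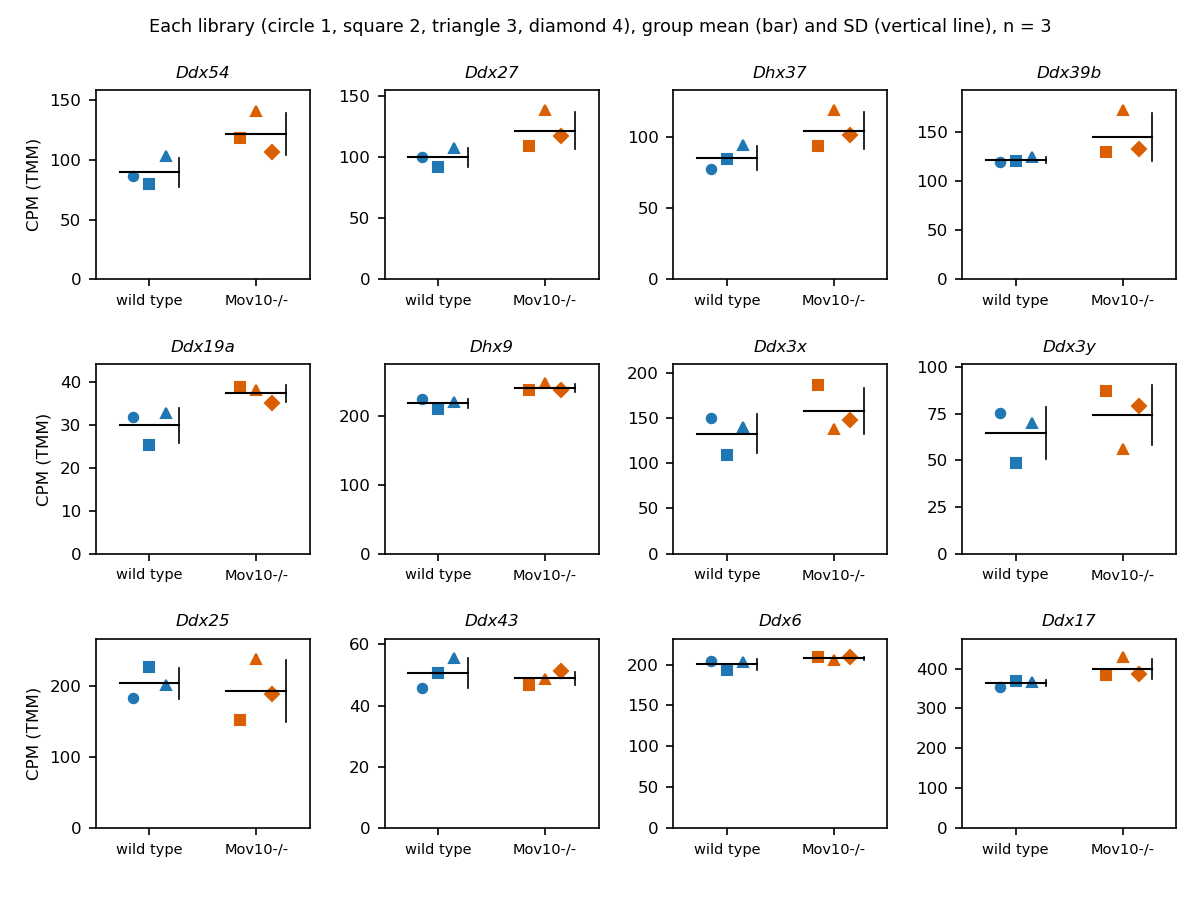
CPM of 12 named genes in each RNA-seq library, on linear axes that start at 0 (blue, wild type; orange, *Mov10*-/-). Horizontal bars are group means and vertical lines 1 SD (n = 3); the groups are apart for *Ddx54*, *Ddx27*, *Ddx39b*, *Ddx19a*, *Dhx9*, *Ddx6* and *Ddx17* and overlap for the others.

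Among 16 genes of ribosome biogenesis were the members with the smallest unadjusted p. They act on precursor ribosomal RNA in the nucleolus. *Ddx54* (ENSMUSG00000029599, chr5:120612739-120628592) had 86.2, 80.0 and 103 CPM in wild type and 119, 141 and 107 CPM in *Mov10*-/- testes. Every knockout value lay above every wild type value, although *Mov10*-/- replicate 4 and wild type replicate 3 were close. The log2 fold change was 0.44 ± 0.14 (SE), a fold of 1.35, with unadjusted p = 0.0157 and adjusted p = 0.189 in the quasi-likelihood test. The adjusted p ranged from 0.0879 to 0.710 over the alternatives, so *Ddx54* did not pass the correction in any of them.

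*Ddx27* (ENSMUSG00000017999, chr2:167015193-167034947) had 100.2, 91.5 and 107 CPM in wild type and 109, 138 and 117 CPM in *Mov10*-/- testes, a log2 fold change of 0.28 ± 0.12 (unadjusted p = 0.0467, adjusted p = 0.278). The nearest values of the genotypes, wild type replicate 3 and *Mov10*-/- replicate 2, lay close together. *Dhx37*, a helicase of small subunit assembly, had 77.6, 84.1 and 94.1 CPM in wild type and 93.3, 119 and 101 CPM in *Mov10*-/- testes, and its groups overlapped (log2 fold change 0.29 ± 0.13, adjusted p = 0.292). All of *Ddx54*, *Ddx27* and *Dhx37* were highest in *Mov10*-/- replicate 3.

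The other genes of the group spread around 0. *Ddx50* had 111, 99.8 and 110.1 CPM in wild type and 130.3, 111 and 116 CPM in *Mov10*-/- testes, with a log2 fold change of 0.16. Its paralog *Ddx21*, which links ribosomal RNA transcription and processing, had 173, 159 and 165 CPM in wild type and 174, 174 and 169.9 CPM in *Mov10*-/- testes (0.06 on the log2 scale). *Ddx55* had 47.7, 35.6 and 56.4 CPM and 46.5, 43.2 and 51.8 CPM (0.02), and its knockout values lay within the wild type range. The groups overlapped for all of these. Over the 16 genes the median was 0.04, 11 were above 0 and 5 below, and the range ran from -0.16 (*Ddx49*) to 0.44. The members not named above with values were *Ddx10*, *Ddx18*, *Ddx24*, *Ddx31*, *Ddx47*, *Ddx51*, *Ddx52*, *Ddx56* and *Dhx33*.

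The 10 spliceosomal members (*Ddx23*, *Ddx39b*, *Ddx41*, *Ddx42*, *Ddx46*, *Dhx8*, *Dhx15*, *Dhx16*, *Dhx35* and *Dhx38*) drive the rearrangements by which the spliceosome is built, activated and taken apart. Their median log2 fold change was 0.11, 8 were above 0 and 2 below, and none reached an unadjusted p under 0.05. *Ddx39b*, which acts in spliceosome assembly and couples it to mRNA export, had 119.6, 120.1 and 124 CPM in wild type and 129.5, 172 and 132 CPM in *Mov10*-/- testes. Its wild type values were tight, and the knockout value of replicate 3 stood far above the rest (log2 fold change 0.25, from 0.11 without that replicate to 0.33 without *Mov10*-/- replicate 2). *Ddx41*, also studied as a sensor of DNA, had 86.0, 92.03 and 92.8 CPM in wild type and 87.5, 139 and 98.99 CPM in *Mov10*-/- testes. Its log2 fold change of 0.26 ran from 0.05 without *Mov10*-/- replicate 3 to 0.39 without *Mov10*-/- replicate 2. *Ddx23*, of the U5 particle, followed the same pattern with 124, 119.8 and 135 CPM in wild type and 126, 170.0 and 137 CPM in *Mov10*-/- testes. *Ddx42* had 149.9, 135 and 145 CPM in wild type and 149.5, 159 and 151 CPM in *Mov10*-/- testes, a log2 fold change of 0.09, and its groups overlapped.

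The 7 members of cytoplasmic mRNA translation, decay and export (*Ddx1*, *Ddx6*, *Ddx19a*, *Ddx19b*, *Dhx29*, *Dhx34* and *Dhx36*) had a median log2 fold change of -0.01, with 3 above 0 and 4 below. *Ddx6* is a core protein of P-bodies that represses translation and promotes decapping. It had 204, 193 and 203 CPM in wild type and 209, 206 and 209 CPM in *Mov10*-/- testes. The groups did not overlap, but the log2 fold change was 0.05 with a 95% interval of -0.13 to 0.24. *Ddx19a* had 31.8, 25.2 and 32.7 CPM in wild type and 38.8, 38.04 and 35.1 CPM in *Mov10*-/- testes (log2 fold change 0.32 ± 0.16, adjusted p = 0.360). *Ddx19b* had 253, 274 and 265 CPM in wild type and 216, 307 and 264 CPM in *Mov10*-/- testes, and its knockout values spanned the wild type range. The lowest log2 fold change of the group was -0.12, for *Dhx29*, which helps ribosomes through structured leaders.

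The 4 members of nuclear transcription, RNA processing and genome maintenance (*Ddx5*, *Ddx11*, *Ddx17* and *Dhx9*) all had values above 0, from 0.07 to 0.14, and none passed. *Dhx9*, which unwinds duplexes of RNA and DNA, had 224, 211 and 220.1 CPM in wild type and 237, 248 and 238 CPM in *Mov10*-/- testes. Its groups did not overlap, with a log2 fold change of 0.14 ± 0.08 (SE, adjusted p = 0.418). *Ddx17* had 355, 368 and 367 CPM in wild type and 383, 428 and 386 CPM in *Mov10*-/- testes, and *Ddx5* had 258, 279.8 and 254 CPM and 271, 296 and 265 CPM. *Ddx17* was apart by a small margin, while *Ddx5* overlapped.

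The pair of mitochondrial members, *Ddx28* and *Dhx30*, which act in assembly of the mitochondrial ribosome, had log2 fold changes of 0.11 and -0.05. The 5 antiviral or less known members (*Ddx59*, *Ddx60*, *Dhx32*, *Dhx40* and *Dhx57*) ran from -0.15 to 0.17. *Ddx60* had 18.7, 16.98 and 20.9 CPM in wild type and 27.3, 12.5 and 23.6 CPM in *Mov10*-/- testes, so that the knockout group again held both ends. *Dhx40* had 151, 173 and 142 CPM in wild type and 149, 152 and 143 CPM in *Mov10*-/- testes, and overlapped.

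In 4 paralog pairs the ratio of the levels per length was compared between genotypes with a two-sided exact permutation test, in which 3 against 3 testes cannot go below p = 0.10. *Ddx17* stood at 1.04 ± 0.0486 times *Ddx5* in wild type and 1.09 ± 0.0189 times in *Mov10*-/- testes (SD, n = 3, exact p = 0.20). *Ddx19b* stood at 3.94 ± 0.725 times *Ddx19a* in wild type and 3.09 ± 0.580 times in *Mov10*-/- testes (exact p = 0.20), with shared sequence behind both genes. *Ddx21* stood at 3.03 ± 0.0910 times *Ddx50* in wild type and 2.85 ± 0.230 times in *Mov10*-/- testes (exact p = 0.30), and for *Ddx3x* and *Ddx3y* exact p was 0.70. Adjusted over the 4 pairs, p was 0.40 to 0.70, and the genotypes overlapped in every pair.

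Genes that work beside the family, and helicases with other symbols, were looked at in the same fit. G-patch proteins activate DEAH box helicases, and proteins with a MIF4G fold, as well as Gle1, activate DEAD box helicases. None of the 23 G-patch genes was called or reached an unadjusted p under 0.05, and their median log2 fold change was 0.07. None of the 12 genes of the MIF4G and Gle1 list did either, with a median of 0.05. That list also holds *Eif4b*, *Eif4h*, *Nxt1* and *Pdcd4*, so it is not limited to activators with such a fold. Of 24 other helicases, among them the eIF4A proteins and UPF1, none was called and 1 reached that level, higher in *Mov10*-/- testes. It was *Recql4*, a RecQ DNA helicase named here after its value was seen, with 46.5, 40.1 and 46.6 CPM in wild type and 55.5, 67.2 and 56.7 CPM in *Mov10*-/- testes (log2 fold change 0.43, adjusted p = 0.182). The groups lay wholly apart, higher in *Mov10*-/- testes, for 5 of the 23 G-patch genes, 4 of the 12 and 3 of the 24. The background was 11.9% of all genes tested and 13.5% of the protein-coding ones. Of these lists, 1 G-patch gene alone lay wholly lower, beside 14.1% and 11.7%.

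CLIP-seq asked which RNAs MOV10 touched in wild type testes. The first 3 CLIP-seq replicates differed among themselves by less than sampling noise (chi-square over its degrees of freedom 0.219 to 0.237, against 1.63 to 1.93 with replicate 5), and were counted as 1 sample by their mean. Only 7 of the 48 genes had a read in any CLIP-seq library, and 41 had none. *Ddx6* had 3, 2, 3 and 4 reads in replicates 1, 2, 3 and 5, and *Ddx17* had 2, 1, 1 and 5. *Dhx36*, which unwinds G-quadruplexes, had 1, 2, 1 and 0 reads and *Dhx33* had 1, 1, 1 and 0. *Ddx5*, *Ddx51* and *Dhx32* had a single read each, all in replicate 5. Most genes with a read were thus seen in replicates 1 to 3 alone or in replicate 5 alone, and only *Ddx6* and *Ddx17* in both samples.

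The absence of reads on the other 41 genes is not informative at this depth. With no read, a gene could still have stood at 608 RPM in replicate 5, the deepest library, or 881 RPM in the shallowest, by counting error alone, while the most abundant member, *Ddx17*, stood at 361 RPM in wild type RNA-seq. Had the CLIP-seq reads fallen on genes in proportion to wild type RNA, *Ddx17* would have had 1.78 reads in replicate 5, and no member would have reached 3.

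Summed over the family, reads were fewer than that proportion gives. The 48 genes together had 7, 6, 6 and 12 reads in replicates 1, 2, 3 and 5, beside 23.2, 20.1, 19.99 and 28.98 at the share of wild type RNA-seq. This is 0.212% (95% exact binomial interval 0.0851% to 0.436%), 0.207% (0.0759% to 0.450%), 0.209% (0.0768% to 0.455%) and 0.286% (0.148% to 0.499%) of reads on protein-coding genes. With replicates 1, 2 and 3 as 1 sample, the share was 18 of 7219 reads, 0.249% (0.148% to 0.394%). The share of wild type RNA-seq was 0.616% ± 0.0114 (SD, n = 3), above every one of these intervals, which cover counting error only. The CLIP-seq reads were also more concentrated than RNA-seq: the 268 genes that reached 10 reads in both assays, summed over all libraries of each, held 30.4% to 37.9% of CLIP-seq reads on genes and 3.87% of wild type RNA-seq reads. Having CLIP-seq reads was part of that choice. What part this concentration had in the share of the helicase genes was not tested.

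*Ddx6* was the single member among those 268 genes. It passed with the 4 libraries summed (12 reads) and would not with replicates 1, 2 and 3 as their mean (6.67 reads), when 82 of the 268 genes pass. It stood at 742 RPM over replicates 1, 2 and 3 and at 811 RPM in replicate 5 (95% Poisson interval 221 to 2076 RPM), while wild type RNA-seq gave 199 ± 11.8 RPM (SD, n = 3). The log2 ratio was 2.07 ± 0.55 (SE, adjusted p = 0.0058, quasi-likelihood test) with scaling by reads on genes, but -0.99 (adjusted p = 0.153) with TMM across both assays, so its direction rests on the scaling. The filter admits genes for their CLIP-seq reads, and 86.9% of the genes tested were called higher, so that the call on *Ddx6* sets it apart from few of them. *Ddx17*, with 1013 RPM in replicate 5 (329 to 2365 RPM) and 371 RPM in the other sample, was not told apart from its 361 RPM in RNA-seq.

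**Figure D5:**
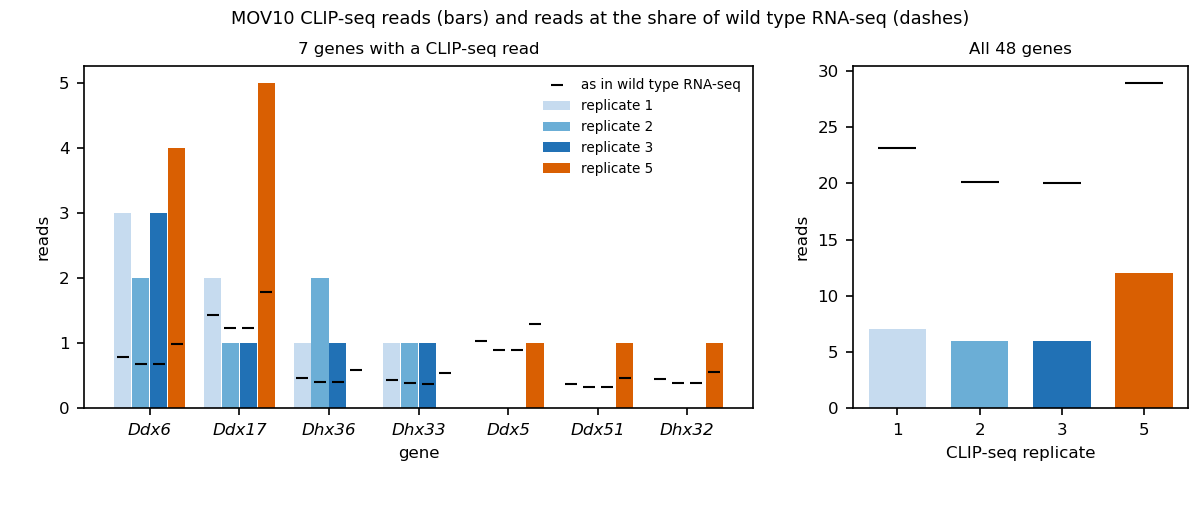
MOV10 CLIP-seq reads in each library (bars) on the 7 helicase genes with a read (left) and on all 48 together (right), with the reads expected at the gene's share of wild type RNA-seq (black dashes). *Ddx6* lies above the dash in all libraries, while the 48 genes together lie below it.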

How the data were processed

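Per the labels and the study's methods, RNA-seq libraries were made from poly(A) RNA with a stranded kit, and the submitters' processing notes name STAR, HTSeq, edgeR and mm10. The values the authors deposited are raw counts for each Ensembl gene, not normalized, with 1 file per library. The strand setting of the counting, and the aligner for CLIP-seq, are not given in the sources used here. Rows that name no gene (not aligned, outside genes, ambiguous) were kept out of library sizes. No column of values was left out.

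Gene symbols, lengths and sequences came from GENCODE M21, which matched 55240 of 55421 genes; the methods name Ensembl version 99. The fit used edgeR 4.0.16 (TMM, quasi-likelihood test, Benjamini-Hochberg adjustment over all genes) in R 4.3.3, for genes with more than 1 RPM in 3 or more of the 6 RNA-seq libraries, and genes were called at a fold over 2 and an adjusted p under 0.05. Intervals are the log2 fold change with its standard error times the t quantile of the fit's degrees of freedom. CPM are TMM-scaled; RPM and RPKM use reads on genes. DESeq2 1.42.0, edgeR's exact test, limma 3.58.1 (voom), other scalings and filters, a replicate block and each replicate left out were alternatives. CLIP-seq was compared with wild type RNA-seq for genes that reached 10 reads in both assays, summed over libraries, without TMM. The scripts were tested on simulated counts. Figures were made with Python 3.11.15.

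The rule for the 48 genes uses symbols alone, but this family, the roles, the partner lists and the marker lists were chosen with earlier results of these data known. Named members were the 10 with the smallest unadjusted p, the 5 highest and 3 lowest wild type RPKM, the germ cell and sex chromosome list, 4 paralog pairs, and those with at least 5 CLIP-seq reads or a call by any of 3 tests. Besides *Mov10*, other genes are named where the text says so.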

Additional observations from a re-analysis of the deposited data

Results flagged for a closer look

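In CLIP-seq replicate 5, the 48 helicase genes took 0.286% of the reads on protein-coding genes, and in replicates 1, 2 and 3 they took 0.212%, 0.207% and 0.209%. Replicate 5 was far from the other 3 libraries by Dixon's test, the single one of 3 measures compared. That test flags about 1 in 20 groups of independent samples by chance, a rate that does not hold here, since the other 3 libraries agreed too closely to count as separate. The exact binomial intervals of the 4 libraries overlap, and the first 3 replicates differed among themselves by less than sampling noise.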

How the results depend on the processing

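No member was called in the reported fit or in any of the 14 alternatives, and none was lower at an unadjusted p under 0.05 in any of them. The count of members higher at that level was 2 (4.17%, beside 5.58% of all genes tested). It was 3 with library size only or without a filter (6.25%, beside 4.96% and 5.38%). With limma voom it was 1 (2.08%, beside 5.9%), with a replicate block 0 (beside 1.76%), and with 1 replicate left out 0 to 6. Members whose groups lay wholly apart numbered 8 higher and 2 lower. The higher ones numbered 7 with library size without TMM (14.6%, beside 10.7% of all genes tested). They numbered 10 with the size factors of DESeq2 (20.8%, beside 11.9%). Without a filter, or above 1 RPM in all 6 libraries, they numbered 9 (18.8%, beside 11.4% and 11.7%). Library size without TMM left 1 lower (2.08%, beside 15.4%). Leaving out 1 replicate gave 9 to 16 higher and 2 to 7 lower, where fewer samples are left to overlap. There were 9 higher without *Mov10*-/- replicate 4 (18.8%, beside 16.1% of all genes tested and 18.1% of protein-coding ones). Without wild type replicate 2 there were 11 (22.9%, beside 14.4% and 16%). Without wild type replicate 1 there were 12 (25%, beside 19.5% and 21.3%). Where 2 members were lower (4.17%), the background was 14.5% to 17.8% of all genes tested. The members' median log2 fold change stayed between 0.04 and 0.10. Of the 22 named members, 16 kept the sign of the log2 fold change in all 14 alternatives and none passed the threshold in any. Same-numbered testes were not paired (correlations of deviations of -0.46 and -0.34 for the 2 shared numbers, with no label of a shared litter or day), and groups lying apart have no blocked version. In CLIP-seq, TMM across both assays left 0 members called in place of 1 and turned the log2 ratio of *Ddx6* from 2.07 to -0.99. The other alternatives kept the call, but none of them changed the scaling. All of them admit genes for their CLIP-seq reads, and 1 takes CLIP-seq replicates 1, 2 and 3 as separate samples. The members' median level was 22.7 RPKM and 32.7 RPKM with the longest transcript, since its length is the smaller divisor. Depth limits CLIP-seq: with 10 reads as the minimum *Ddx6* alone was tested, and with 1 read 7 members were. Of these 7, *Ddx6* alone was called, or 14.3%, beside 11.3% of the 3971 genes tested.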
